A study of Mus musculus with 12 samples.

Results

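The genes described here encode the cornified envelope, the protein shell that replaces the plasma membrane of a dying keratinocyte, and their RNA was measured in sorted stem cells of the mouse hair follicle that had kept or lost the transcription factor Foxc1. All rows of the deposited gene tables were taken whose symbol begins with Lce or Sprr, with the rows of 15 single genes: Lor, Ivl, Rptn, Tchh, Tchhl1, Hrnr, Flg2, Crnn, Cnfn, Tgm1, Tgm3, Casp14, Cdsn, Krtdap and Grhl3. That gave 51 of 23735 gene models, for 50 symbols, since Sprr2a1 stands on 2 rows. Of the 51, 32 reached 1 FPKM (fragments per kilobase of transcript, scaled to the mapped fragments of the library) in at least 1 of the 7 groups of libraries, and 19 did not. The members are 21 late cornified envelope genes (Lce), 15 small proline-rich genes (Sprr), 6 fused-type S100 genes (Tchh, Tchhl1, Flg2, Hrnr, Rptn, Crnn), 5 other structural or secreted products (Lor, Ivl, Cnfn, Cdsn, Krtdap), 3 enzymes (Tgm1, Tgm3, Casp14) and the regulator Grhl3.

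As background, the envelope is laid down under the membrane when keratinocytes leave the spinous layers. Involucrin forms an early scaffold, loricrin makes up most of the mass in the interfollicular epidermis, and small proline-rich and late envelope proteins are joined to them by transglutaminases. Most of these genes sit side by side in the epidermal differentiation complex. In the hair follicle, trichohyalin and transglutaminase 3 harden the inner root sheath, while the bulge stem cells themselves are basal keratinocytes that do not cornify.

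RNA was sequenced from 12 libraries in 7 groups. Anagen, the growth phase, was represented by 2 inducible knockout (iKO) and 2 heterozygous (Het) libraries from males of a Black Swiss/ C57BL/6 mix at postnatal day 30, all carrying Sox9CreER, a tamoxifen-activated Cre expressed from the Sox9 promoter, and all given tamoxifen, per the labels' protocols. The Het mice are labelled FOXC1-Sox9CreER-heterozygous, so they may carry fewer working copies of Foxc1 than wild type. Second telogen, the adult resting phase, was represented by 2 conditional knockout (cKO) libraries, in which the keratin 14 promoter drives Cre throughout basal skin epithelium, and by 2 wild-type (WT) libraries. Both groups were Black Swiss, and each held 1 male of day 42 and 1 female of day 46. A further 2 second telogen iKO libraries came from Sox9CreER males of the mixed strain at day 60, and no control of that driver, strain and age is among the groups used here. Shh-heterozygous Agouti females, titled WT, gave 1 library at an early substage (anagen II, about day 26) and 1 of first telogen (about day 23). Below, telogen alone means second telogen.

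In the files used here, each group has a single pooled FPKM for a gene, and the spread between libraries cannot be given. Every FPKM value, fold and q-value in this text is from the authors' deposited Cuffdiff tables. A gene is called higher or lower where the deposited q-value was below 0.05, and the standard error (SE) given with a log2 fold is that fold divided by the deposited test statistic, which is approximate. The anagen and cKO comparisons have a table each, and all other comparisons and all levels over 7 groups are from a joint table of 21 comparisons. Foxc1, the targeted gene, was at 1.32 to 3.17 FPKM in the 3 knockout groups and at 22.1 to 42.6 FPKM in the 4 others. Of the stem cell genes, Lhx2 was at 149 to 257 FPKM, Lgr5 at 54.2 to 102 FPKM and Cd34 at 129 to 883 FPKM over the 7 groups. Of the bulge markers with a test, 2 of 8 were lower in anagen iKO against Het cells. In telogen cKO against WT cells 0 of 8 were called (2 lower at an unadjusted p below 0.05). In telogen iKO cells 1 of 8 was higher against WT and 1 of 8 against cKO cells. Between stages, 3 of 8 were lower in anagen Het against telogen WT cells, and 2 of 9 were higher in telogen than in anagen iKO cells. Krt5 was listed at 0 in 5 groups and Krt15 in 3, which for basal keratinocytes may be a failed estimate. The first telogen library stood apart: it had 1857 gene models listed at 0, against 5858 to 6347 in the other groups, and 67.4% of the 4230 models at 0 in all other groups were above 0 in it, at a median of 0.268 FPKM. Fibroblast markers summed to 2107 FPKM in first telogen and 1025 FPKM in anagen II, against 13.5 to 103 FPKM elsewhere. Of the members, 6 were listed at 0 in the other groups, and 5 of them were above 0 in first telogen, at 0.188 to 0.567 FPKM. The count of members reaching 1 FPKM is given with and without that library, and other counts over the 7 groups include it. The contrast of anagen II with first telogen cannot be had without that library.

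The promoters of 5 members are shown because their genes carry the contrasts described below: Sprr1b was higher in each knockout comparison with a control, Sprr1a is its close relative in the same cluster, Krtdap had the highest level, and Lor and Lce1m were the most strongly lower in anagen Het against telogen WT cells. Each run is the 250 bases upstream of the RefSeq start in build GRCm38.p6, written 5′ to 3′ on the gene's strand, with capitals marking matches to TGANTCA, the letters bound by AP-1 factors, and to TATAAA, the TATA box.
Sprr1b, chr3:92438780-92439029, minus strand: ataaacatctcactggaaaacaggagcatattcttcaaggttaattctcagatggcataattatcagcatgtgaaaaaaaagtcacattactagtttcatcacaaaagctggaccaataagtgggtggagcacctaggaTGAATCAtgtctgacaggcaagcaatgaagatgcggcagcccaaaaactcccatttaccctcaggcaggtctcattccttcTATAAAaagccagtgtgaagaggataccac
Sprr1a, chr3:92485882-92486131, minus strand: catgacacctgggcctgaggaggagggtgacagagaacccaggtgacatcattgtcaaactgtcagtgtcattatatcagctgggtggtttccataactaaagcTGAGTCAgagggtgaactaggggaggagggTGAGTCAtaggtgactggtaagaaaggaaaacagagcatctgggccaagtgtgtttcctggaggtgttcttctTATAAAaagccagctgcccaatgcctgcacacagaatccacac
Krtdap, chr7:30787655-30787904, plus strand: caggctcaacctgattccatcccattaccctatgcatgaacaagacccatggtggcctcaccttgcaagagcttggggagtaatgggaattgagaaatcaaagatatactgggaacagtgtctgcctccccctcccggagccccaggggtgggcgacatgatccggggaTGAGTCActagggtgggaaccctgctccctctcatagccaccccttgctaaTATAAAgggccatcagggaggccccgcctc
Lor, chr3:92083143-92083392, minus strand: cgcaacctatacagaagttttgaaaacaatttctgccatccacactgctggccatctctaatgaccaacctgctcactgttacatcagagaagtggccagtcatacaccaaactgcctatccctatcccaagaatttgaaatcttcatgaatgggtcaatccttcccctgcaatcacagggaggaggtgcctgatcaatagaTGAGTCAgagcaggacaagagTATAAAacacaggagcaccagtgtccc
Lce1m, chr3:93019062-93019311, minus strand: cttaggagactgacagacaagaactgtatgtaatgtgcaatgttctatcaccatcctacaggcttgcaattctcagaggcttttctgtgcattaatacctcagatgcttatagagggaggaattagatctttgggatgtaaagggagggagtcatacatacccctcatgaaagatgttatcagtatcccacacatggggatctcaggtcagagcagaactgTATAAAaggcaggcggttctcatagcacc

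Of the 50 symbols, 47 had an entry in the RefSeq promoter table. On either strand, TGANTCA was present in 16 of these 47 (34%), against 6.75% of all 32851 promoters of the same length, and TATAAA was present in 21 (44.7%), against 12.4%. A member was counted where any of its promoter entries held the motif, whereas the share over all promoters is per entry. Sprr1b held the AP-1 letters at bases -111 to -105 from the start, Sprr1a at -146 to -140 and again at -116 to -110, Krtdap at -81 to -75 and Lor at -48 to -42. The Lce1m window held no match to TGANTCA, and its TATAAA lay at -29 to -24. The Sprr2 genes arose by duplication, and Sprr2b, Sprr2d, Sprr2e, Sprr2f, Sprr2h, Sprr2i and Sprr2k each held TATAAA at -29 to -24. Each of them also held TGANTCA, between -198 and -176, so these promoters are not independent counts for either motif. Not all TATAAA matches lay near the start, with Lce6a at -218 to -213 and Lce3e at -243 to -238. The Grainyhead letters AACNNGTT were present in 1 member (Rptn) against 3.64% of all promoters, and the forkhead letters GTAAACA in 1 (Hrnr) against 3.17% and GTAAATA in 2 (Tgm3 and Rptn) against 2.73%. A match of letters is a description of this window only.

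Levels in these sorted cells were uneven between members. Only Krtdap and Lor passed 100 FPKM in any group, 11 members passed 10 FPKM, and 11 stood at 1 FPKM or more in all 7 groups. All 5 structural and secreted products outside the families, all 3 enzymes and Grhl3 reached 1 FPKM, as did 5 of 6 fused-type genes, 13 of 21 Lce genes and 5 of 15 Sprr genes. Just inside the threshold were Lce1g at 1.04 FPKM and Lce1j at 1.10 FPKM in their highest groups, and just outside it Sprr2f at 0.802 FPKM and Lce1k at 0.799 FPKM. Between 0.5 and 1 FPKM in the highest group were also Sprr2k, Sprr2h, Rptn, Sprr2j-ps, Lce3a, Sprr2b, Lce3c and Lce3b. Of the members between 0.5 and 1 FPKM, all but Sprr2h had their highest value in first telogen. Below 0.5 FPKM were Lce1h, Lce3f, Lce3e, Sprr2e, Sprr2g, Sprr3 and both rows of Sprr2a1, and Lce3d was listed at 0 in every group. Without the first telogen library 30 members reached 1 FPKM, since Lce1g and Sprr2i did so in it alone. The Lce1 genes, and likewise the Sprr2 genes, are near-identical copies that can share reads, so the split of a level among them is uncertain.

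**Figure D1:**
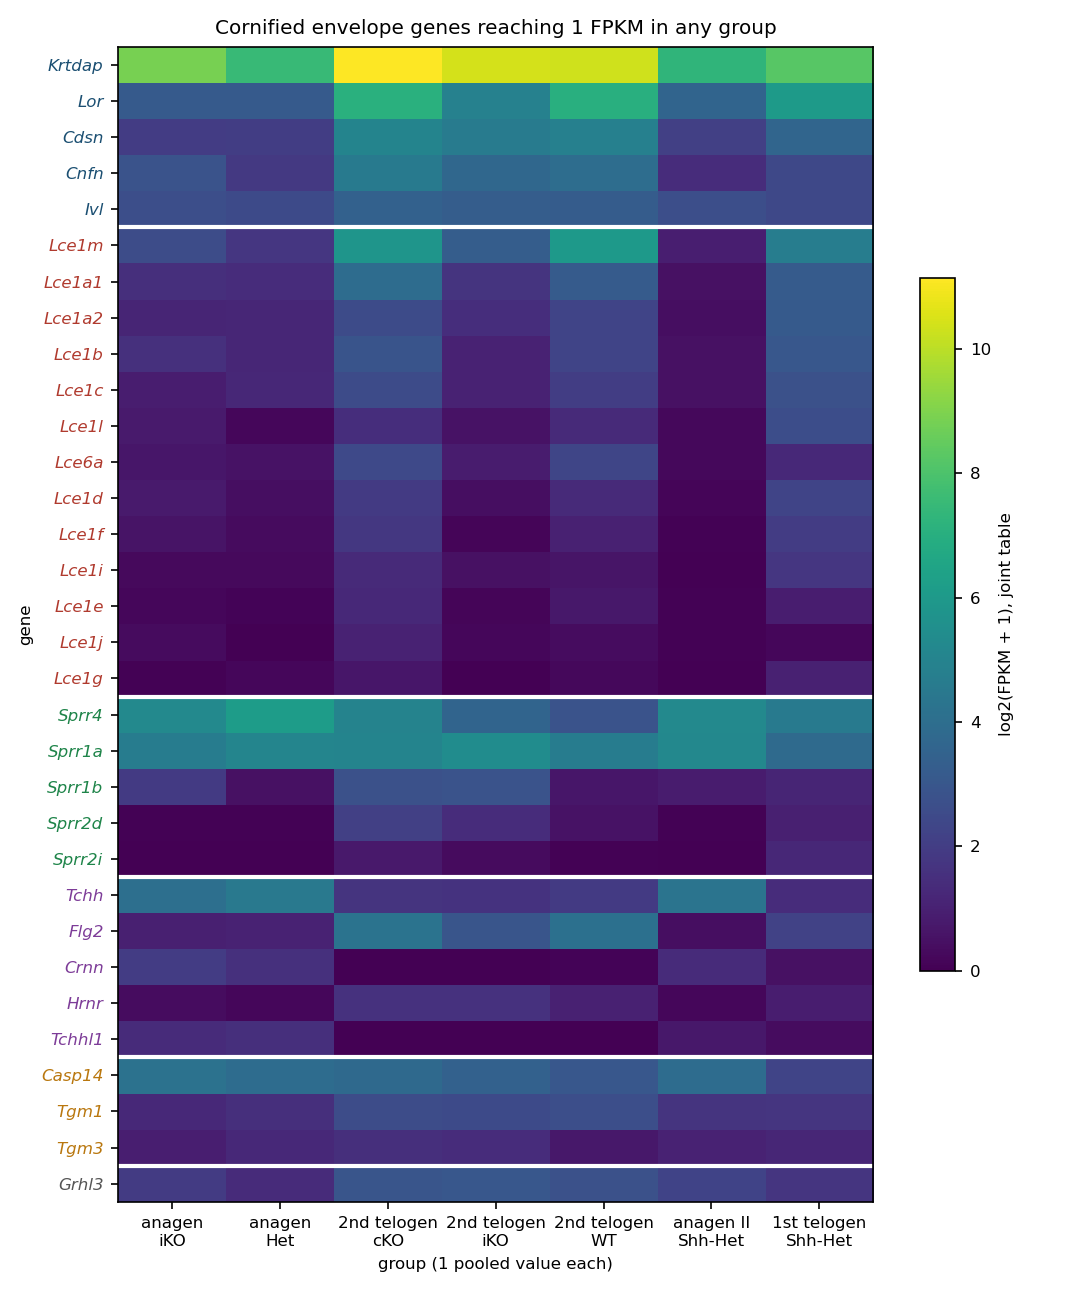
Heat map of log2(FPKM + 1) in the joint table for the 32 members that reached 1 FPKM in any group, with groups across and genes down, ordered by family and then by highest level. Krtdap is brightest throughout, Lor and most Lce1 genes are brighter in telogen cKO, telogen WT and first telogen columns than in anagen columns, and Tchh, Crnn and Tchhl1 are brighter in the anagen columns.

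Of the structural and secreted products, Krtdap had 466 FPKM in anagen iKO and 181 FPKM in anagen Het cells, 2255 in telogen cKO, 1366 in telogen iKO and 1281 in telogen WT cells, and 156 in anagen II and 303 in first telogen. It was the highest member in every group. Lor had 7.896 FPKM in anagen iKO and 7.86 FPKM in anagen Het cells, 135 in telogen cKO, 28.9 in telogen iKO and 130 in telogen WT cells, and 11.04 in anagen II and 65.6 in first telogen. The loricrin level was at least 28.9 FPKM in the telogen groups and first telogen and at most 11.04 FPKM in the anagen groups. Cdsn had 2.94 FPKM in anagen iKO and 3.01 FPKM in anagen Het cells, 31.9 in telogen cKO, 24.1 in telogen iKO and 27.5 in telogen WT cells, and 3.33 in anagen II and 11.5 in first telogen. Cnfn had 6.12 FPKM in anagen iKO and 2.598 FPKM in anagen Het cells, 23.02 in telogen cKO, 12.02 in telogen iKO and 14.8 in telogen WT cells, and 1.66 in anagen II and 4.31 in first telogen. Ivl had 5.33 FPKM in anagen iKO and 4.69 FPKM in anagen Het cells, 9.88 in telogen cKO, 8.89 in telogen iKO and 8.52 in telogen WT cells, and 5.38 in anagen II and 4.37 in first telogen. Corneodesmosin, like loricrin, had larger values in each telogen group than in any anagen group. Involucrin lay between 4.37 and 9.88 FPKM in all groups.

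Among the late envelope genes, Lce1m had 4.95 FPKM in anagen iKO and 2.38 FPKM in anagen Het cells, 54.7 in telogen cKO, 8.64 in telogen iKO and 63.5 in telogen WT cells, and 0.917 in anagen II and 25.3 in first telogen. It was the highest Lce gene in every group. Lce1a1 had 1.81 FPKM in anagen iKO and 1.63 FPKM in anagen Het cells, 14.2 in telogen cKO, 2.23 in telogen iKO and 8.29 in telogen WT cells, and 0.401 in anagen II and 8.07 in first telogen. Lce1a2 had 1.23 FPKM in anagen iKO and 1.26 FPKM in anagen Het cells, 4.86 in telogen cKO, 1.71 in telogen iKO and 3.86 in telogen WT cells, and 0.343 in anagen II and 7.99 in first telogen. Lce1b had 1.897 FPKM in anagen iKO and 1.3 FPKM in anagen Het cells, 6.41 in telogen cKO, 1.09 in telogen iKO and 3.88 in telogen WT cells, and 0.403 in anagen II and 7.24 in first telogen. In these 4 genes telogen cKO cells had more than telogen iKO cells, and anagen II had the lowest values. Lce1c had 0.873 FPKM in anagen iKO and 1.35 FPKM in anagen Het cells, 4.84 in telogen cKO, 1.12 in telogen iKO and 3.07 in telogen WT cells, and 0.427 in anagen II and 5.74 in first telogen. Lce1l had 0.748 FPKM in anagen iKO and 0.153 FPKM in anagen Het cells, 1.77 in telogen cKO, 0.455 in telogen iKO and 1.49 in telogen WT cells, and 0.177 in anagen II and 5.16 in first telogen. Lce6a had 0.582 FPKM in anagen iKO and 0.461 FPKM in anagen Het cells, 4.47 in telogen cKO, 0.787 in telogen iKO and 4.09 in telogen WT cells, and 0.193 in anagen II and 1.41 in first telogen. For each of them telogen iKO cells had less than telogen cKO and WT cells. Lce1d had 0.724 FPKM in anagen iKO and 0.347 FPKM in anagen Het cells, 2.68 in telogen cKO, 0.3304 in telogen iKO and 1.49 in telogen WT cells, and 0.119 in anagen II and 3.89 in first telogen. Lce1f had 0.488 FPKM in anagen iKO and 0.257 FPKM in anagen Het cells, 2.45 in telogen cKO, 0.0985 in telogen iKO and 1.04 in telogen WT cells, and 0.0365 in anagen II and 2.89 in first telogen. Lce1i had 0.219 FPKM in anagen iKO and 0.2005 FPKM in anagen Het cells, 1.503 in telogen cKO, 0.401 in telogen iKO and 0.529 in telogen WT cells, and 0 in anagen II and 2.39 in first telogen. These genes reached 1 FPKM only in telogen or first telogen cells. Lce1e had 0.158 FPKM in anagen iKO and 0.0944 FPKM in anagen Het cells, 1.42 in telogen cKO, 0.127 in telogen iKO and 0.641 in telogen WT cells, and 0.0375 in anagen II and 0.845 in first telogen. Lce1j had 0.254 FPKM in anagen iKO and 0 FPKM in anagen Het cells, 1.103 in telogen cKO, 0.156 in telogen iKO and 0.312 in telogen WT cells, and 0.0379 in anagen II and 0.1398 in first telogen. Lce1g had 0.0327 FPKM in anagen iKO and 0.134 FPKM in anagen Het cells, 0.593 in telogen cKO, 0.0185 in telogen iKO and 0.191 in telogen WT cells, and 0.0271 in anagen II and 1.04 in first telogen. The last of them reached 1 FPKM in first telogen alone, the library in which the fewest genes are listed at 0.

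Among the small proline-rich genes, Sprr4 had 36.5 FPKM in anagen iKO and 70.9 FPKM in anagen Het cells, 31.05 in telogen cKO, 10.9 in telogen iKO and 6.27 in telogen WT cells, and 36.8 in anagen II and 22.6 in first telogen. Sprr1a had 24.3 FPKM in anagen iKO and 32.8 FPKM in anagen Het cells, 31.96 in telogen cKO, 41.2 in telogen iKO and 24.3 in telogen WT cells, and 35.4 in anagen II and 13.6 in first telogen. Both were above 6 FPKM in every group. Sprr1b had 2.71 FPKM in anagen iKO and 0.412 FPKM in anagen Het cells, 5.86 in telogen cKO, 6.28 in telogen iKO and 0.587 in telogen WT cells, and 0.794 in anagen II and 1.25 in first telogen. Its 3 highest values are those of the knockout groups. Sprr2d had 0.04802 FPKM in anagen iKO and 0.0503 FPKM in anagen Het cells, 3.26 in telogen cKO, 1.69 in telogen iKO and 0.471 in telogen WT cells, and 0.0391 in anagen II and 0.984 in first telogen. Sprr2i had 0.0278 FPKM in anagen iKO and 0 FPKM in anagen Het cells, 0.717 in telogen cKO, 0.246 in telogen iKO and 0.0411 in telogen WT cells, and 0 in anagen II and 1.39 in first telogen. The other Sprr2 genes and Sprr3 stayed below 1 FPKM in every group.

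Of the fused-type genes, which couple a calcium-binding S100 domain to a repetitive tail, Tchh had 15.7 FPKM in anagen iKO and 21.8 FPKM in anagen Het cells, 2.22 in telogen cKO, 2.09 in telogen iKO and 2.74 in telogen WT cells, and 18.8 in anagen II and 1.68 in first telogen. Crnn had 2.94 FPKM in anagen iKO and 1.88 FPKM in anagen Het cells, 0.0109 in telogen cKO, 0 in telogen iKO and 0.0746 in telogen WT cells, and 1.57 in anagen II and 0.418 in first telogen. Tchhl1 had 1.56 FPKM in anagen iKO and 1.81 FPKM in anagen Het cells, 0 in telogen cKO, 0.00678 in telogen iKO and 0 in telogen WT cells, and 0.621 in anagen II and 0.301 in first telogen. These 3 were higher in value in the anagen groups than in any second telogen group. Flg2 had 0.942 FPKM in anagen iKO and 1.07 FPKM in anagen Het cells, 17.98 in telogen cKO, 6.69 in telogen iKO and 16.5 in telogen WT cells, and 0.346 in anagen II and 3.55 in first telogen. Hrnr had 0.279 FPKM in anagen iKO and 0.133 FPKM in anagen Het cells, 2.04 in telogen cKO, 2.05 in telogen iKO and 1.04 in telogen WT cells, and 0.1496 in anagen II and 0.868 in first telogen. Both had their highest values in second telogen cells.

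Of the enzymes, Casp14 had 17.5 FPKM in anagen iKO and 14.3 FPKM in anagen Het cells, 12.95 in telogen cKO, 9.85 in telogen iKO and 7.23 in telogen WT cells, and 14.5 in anagen II and 3.81 in first telogen. Tgm1 had 1.44 FPKM in anagen iKO and 1.86 FPKM in anagen Het cells, 4.94 in telogen cKO, 4.63 in telogen iKO and 5.39 in telogen WT cells, and 2.21 in anagen II and 2.33 in first telogen. Tgm3 had 0.915 FPKM in anagen iKO and 1.43 FPKM in anagen Het cells, 1.83 in telogen cKO, 1.68 in telogen iKO and 0.647 in telogen WT cells, and 1.11 in anagen II and 1.28 in first telogen. Caspase 14 had its highest values in the anagen groups, and transglutaminase 1 in the second telogen groups. Grhl3 had 2.87 FPKM in anagen iKO and 1.55 FPKM in anagen Het cells, 6.696 in telogen cKO, 7.13 in telogen iKO and 5.72 in telogen WT cells, and 3.77 in anagen II and 2.298 in first telogen. This transcription factor also had its highest values in second telogen cells.

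The 44 members on chromosome 3 span 1.39 Mb in build mm9, from the start of Lor at 91884192 to the end of Tchhl1 at 93275902. Outside it lie Krtdap and Cnfn on chromosome 7, Tgm3 on chromosome 2, Grhl3 on chromosome 4, Casp14 on chromosome 10, Tgm1 on chromosome 14 and Cdsn on chromosome 17.

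The anagen comparison addresses what loss of Foxc1 does in growing-phase stem cells. Of 27 members with a test, 4 were higher in iKO than in Het cells and 0 were lower. Over all 13716 tested genes 10.3% were called, 5.18% as higher and 5.08% as lower. The members' share called higher was above that of all genes and their share called lower was below it. This difference rests on few calls and was not tested. At an unadjusted deposited p below 0.05, Cuffdiff had 7 members with larger and 4 with smaller values in iKO cells. The 4 called members were Sprr1b, a cross-bridging precursor, Krtdap, a secreted product of suprabasal keratinocytes, Cnfn (cornifelin), an envelope component, and Grhl3, a transcription factor needed for the skin barrier. Over all 51 members the value was larger in iKO cells for 24 and smaller for 16. The median log2((FPKM + 1) ratio) was 0 over all 51 and 0.16 over the 27 with a test, against -0.02 over all tested genes.

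Sprr1b (chromosome 3, 92240730 to 92242701, mm9) had 2.87 FPKM in iKO and 0.436 FPKM in Het cells, 6.59-fold higher (log2 fold 2.72, SE 0.60, q = 0.00578 in the authors' deposited table). Krtdap (chromosome 7, 31572923 to 31576102) had 494 FPKM in iKO and 192 FPKM in Het cells, 2.57-fold higher (log2 fold 1.36, SE 0.15, q = 0.00106 in the authors' deposited table). No other member differed by as many FPKM. Cnfn had 6.48 FPKM in iKO and 2.75 FPKM in Het cells (2.36-fold higher, SE 0.61 on the log2 scale), and its deposited q of 0.0497 lay at the threshold. Grhl3 had 3.04 FPKM in iKO and 1.64 FPKM in Het cells (1.85-fold higher, SE 0.39 on the log2 scale, q = 0.0283 in the authors' deposited table).

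The late envelope genes did not pass the test in anagen: 0 of 9 tested Lce genes were called by Cuffdiff, and 1 had an unadjusted p below 0.05. Lce1m, the highest of them, had 5.25 FPKM in iKO and 2.52 FPKM in Het cells (log2 fold 1.06, SE 0.44, q = 0.0852 in the authors' deposited table). Loricrin was at 8.37 FPKM in iKO and 8.33 FPKM in Het cells (log2 fold 0.01, SE 0.26), a difference smaller than its SE. Involucrin had 5.64 FPKM in iKO and 4.97 FPKM in Het cells, and corneodesmosin (Cdsn), the adhesive of the cornified cell junctions, had 3.12 and 3.19 FPKM in iKO and Het cells. The root sheath products had smaller values in iKO cells without passing the test: Tchh had 16.6 FPKM in iKO and 23.1 FPKM in Het cells (q = 0.129), and Tgm3 had 0.969 FPKM in iKO and 1.51 FPKM in Het cells (q = 0.187 in the authors' deposited table). Markers of other cell types were measured in the same table. Suprabasal markers summed to 1348 FPKM in iKO and 1332 FPKM in Het cells with 1 of 6 (Krt1) higher (3 higher and 0 lower at an unadjusted p below 0.05). Only Sbsn of them had a smaller value in iKO cells, at 672 FPKM against 818 FPKM in Het cells in the joint table. Their median log2((FPKM + 1) ratio) was 0.28, against -0.02 over all tested genes. Inner root sheath markers summed to 176 FPKM in iKO and 224 FPKM in Het cells with 1 of 9 higher and 3 lower, and hair shaft markers to 39.3 FPKM in iKO and 85.5 FPKM in Het cells with 7 of 8 tested lower. Fibroblast markers summed to 58.0 FPKM in iKO and 109 FPKM in Het cells with 3 of 6 lower, and 1 of 4 tested immune markers was higher. Their part in the values of the envelope genes was not tested, and in these bulk samples fewer cells of a type and less RNA per cell cannot be told apart.

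The telogen comparison sets cKO against WT cells of the same strain, ages and sexes. Of 32 members with a test, 4 were higher in cKO cells (Sprr1b, Tgm3, Hrnr and Casp14) and 0 were lower. Over all 13551 tested genes 6.62% were called, 3.75% as higher and 2.87% as lower. At an unadjusted deposited p below 0.05, Cuffdiff had 7 members with larger and 0 with smaller values in cKO cells. Values were larger in cKO cells for 36 of the 51 members and smaller for 7, and the median log2((FPKM + 1) ratio) was 0.19 over all 51 and 0.56 over the 32 with a test, against 0.00 over all tested genes.

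Sprr1b had 5.63 FPKM in cKO and 0.565 FPKM in WT cells, 9.96-fold higher (log2 fold 3.32, SE 0.65, q = 0.00638 in the authors' deposited table). Tgm3, the transglutaminase of the follicle and late epidermis, had 1.76 FPKM in cKO and 0.623 FPKM in WT cells (2.82-fold higher, SE 0.56 on the log2 scale, q = 0.00746 in the authors' deposited table). Hornerin (Hrnr), a filaggrin-like fused-type protein, had 1.96 FPKM in cKO and 1.00 FPKM in WT cells (1.96-fold higher, q = 0.0129 in the authors' deposited table). Casp14, the protease that takes part in filaggrin breakdown, had 12.4 FPKM in cKO and 6.96 FPKM in WT cells (1.79-fold higher, q = 0.0295 in the authors' deposited table). Apart from Casp14, the called genes were at about 1 FPKM or less in WT cells.

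Further Sprr genes had larger values in cKO cells and missed the threshold in this table. Sprr2d had 3.13 FPKM in cKO and 0.452 FPKM in WT cells (log2 fold 2.79, SE 0.72, q = 0.0680), and Sprr4 had 29.8 FPKM in cKO and 6.01 FPKM in WT cells (log2 fold 2.31, q = 0.1005 in the authors' deposited table). Sprr4 is a gene model of only 232 bases, and its deposited p-value of 0.0082 is much weaker than its test statistic, so no SE is given for it. Krtdap had 2165 FPKM in cKO and 1230 FPKM in WT cells (log2 fold 0.82, SE 0.22, q = 0.0625 in the authors' deposited table). In the joint table, where q-values were adjusted over 21 comparisons, these 3 were called as well, which makes 7 calls, all higher. Lor and Lce1m, the most abundant envelope genes after Krtdap, differed little: Lor had 130 FPKM in cKO and 124 FPKM in WT cells, and Lce1m had 52.7 FPKM in cKO and 60.8 FPKM in WT cells (q = 0.990 and 0.913 in the authors' deposited table). Of 14 tested Lce genes 13 had larger values in cKO cells and 0 were called by Cuffdiff, 0 also at an unadjusted p below 0.05, with SEs of 0.31 to 1.11 on the log2 scale. The suprabasal markers summed to 4418 FPKM in cKO and 3887 FPKM in WT cells with 0 of 6 called by Cuffdiff in the same table (1 higher and 0 lower at an unadjusted p below 0.05), and the infundibulum markers to 814 FPKM in cKO and 303 FPKM in WT cells with 3 of 6 higher and 1 lower. Of 7 sebaceous markers 1 was higher and 1 lower, 1 of 5 tested inner root sheath and 1 of 3 tested fibroblast markers were higher, and 1 of 4 tested immune markers was lower. Their part in these values was not tested.

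**Figure D2:**
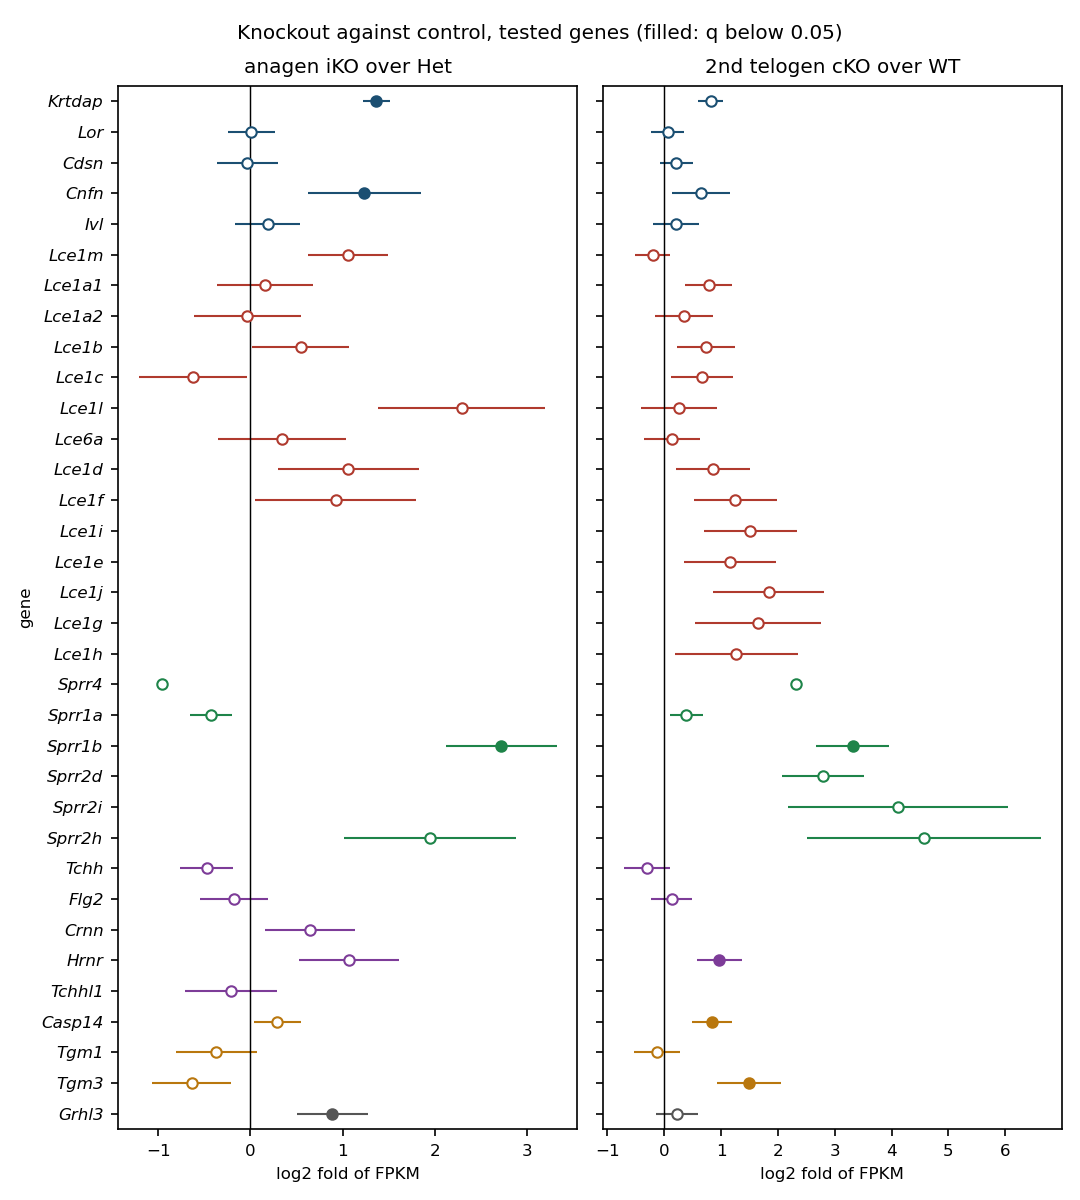
Log2 fold of FPKM for every tested member in anagen iKO over Het (left) and telogen cKO over WT (right), coloured by family, with bars of 1 approximate SE and filled points where the deposited q was below 0.05. Sprr1b is filled on the right side of 0 in both panels, no filled point lies left of 0, and Sprr4 is drawn without a bar.

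Whether the knockout effect differed between both comparisons was tested for 20 members as the difference of the log2 folds. Sprr4 alone was called, with a log2 fold of -0.96 in anagen (38.7 FPKM in iKO and 75.1 FPKM in Het cells) and 2.31 in telogen, a difference of 3.27. Its adjusted p in the z test was 5.35e-43 from the statistics and 0.117 when the larger SE implied by the deposited p-values was used. The call rests on the first, whose SE the much weaker deposited p-values of Sprr4 do not bear out. A difference is therefore not established. Over all 11404 genes tested in this way 0.64% were called, 0.351% with the higher and 0.289% with the lower fold in telogen. For Sprr1b the difference was 0.60 (SE 0.88), with log2 folds of 2.72 in anagen and 3.32 in telogen. Tgm3 was not among the 20, since its deposited p-value in anagen did not follow its statistic. With such genes kept, its log2 folds of -0.64 in anagen and 1.49 in telogen differed by 2.13. It was not called (adjusted p of 0.171 in the z test). Driver, control genotype, strain, age and sex differ between both comparisons together with stage, and tamoxifen treatment may differ too.

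Telogen iKO cells have no control of their own and were set against telogen WT cells, with which the cKO cells were compared as well. Of 27 members tested, 4 were higher in iKO cells (Sprr1b, Sprr1a, Tgm3, Hrnr) and 6 were lower (Lce1m, Lce6a, Lor, Lce1a1, Lce1b, Flg2). Over all 13714 tested genes 12.9% were called, 7.01% as higher and 5.88% as lower. Every tested Lce gene, 11 of 11, had a smaller value in iKO cells, and 4 of them were called. Every tested Sprr gene, 4 of 4, had a larger value, and 2 were called.

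Sprr1b had 6.28 FPKM in telogen iKO and 0.587 FPKM in WT cells, 10.7-fold higher (log2 fold 3.42, SE 0.54, q = 0.000444 in the authors' deposited table). Its relative Sprr1a, a cross-bridging precursor already abundant in WT cells, had 41.2 FPKM in iKO and 24.3 FPKM in WT cells (1.69-fold higher, SE 0.24 on the log2 scale, q = 0.00884 in the authors' deposited table). Lce1m had 8.64 FPKM in iKO and 63.5 FPKM in WT cells, 7.35-fold lower (log2 fold -2.88, SE 0.30, q = 0.000444 in the authors' deposited table). Lor had 28.9 FPKM in iKO and 130 FPKM in WT cells, 4.48-fold lower (log2 fold -2.16, SE 0.23, q = 0.000444 in the authors' deposited table). Filaggrin 2 (Flg2), a keratin-aggregating protein of the granular layer, had 6.69 FPKM in iKO and 16.5 FPKM in WT cells (2.46-fold lower, SE 0.30 on the log2 scale). Other granular and cornified products did not pass the test: Krtdap had 1366 FPKM in iKO and 1281 FPKM in WT cells, Cdsn 24.1 FPKM in iKO and 27.5 FPKM in WT cells, and Ivl 8.89 FPKM in iKO and 8.52 FPKM in WT cells. The suprabasal markers summed to 3846 FPKM in iKO and 4042 FPKM in WT cells with 1 of 6 higher (Dsg1a) and 1 lower (Sbsn). Only Sbsn of them had a smaller value in iKO cells, at 771 FPKM against 1505 FPKM in WT cells. Their median log2((FPKM + 1) ratio) was 0.26, against -0.02 over all tested genes. Infundibulum markers summed to 776 FPKM in iKO and 315 FPKM in WT cells with 2 of 6 higher, and sebaceous markers to 296 FPKM in iKO and 199 FPKM in WT cells with 4 of 7 higher and 1 lower. Of the tested inner root sheath markers 2 of 6 were higher, 2 of 5 fibroblast markers were lower, and 1 of 5 immune markers was higher. Their part in the values of the envelope genes was not tested. Driver, strain, age and sex differ between these groups together with genotype and cannot be told apart from it. Sox9CreER is activated by tamoxifen, so that treatment may differ too.

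The 2 knockouts of telogen were also compared with each other, a comparison added after the levels had been seen. Of 32 members tested, 0 were higher and 13 were lower in iKO than in cKO cells, where 14.9% of all 13711 tested genes were called, 7.53% as higher and 7.35% as lower. At an unadjusted p below 0.05, Cuffdiff had 0 members with larger and 17 with smaller values. The share of members lower in iKO cells was above that of all genes, a difference that was not tested. Among the 13 were 8 of 14 tested Lce genes, with Lor, Flg2, Krtdap, Cnfn and Sprr4. Lce1m had 8.64 FPKM in iKO and 54.7 FPKM in cKO cells (6.34-fold lower, SE 0.29 on the log2 scale), and Lor had 28.9 FPKM in iKO and 135 FPKM in cKO cells (4.67-fold lower, SE 0.21 on the log2 scale), both with q = 0.000444 in the authors' deposited table. Sprr1b, by contrast, had 6.28 FPKM in iKO and 5.86 FPKM in cKO cells, a log2 fold of 0.10 (SE 0.37), and Hrnr had 2.05 FPKM in iKO and 2.04 FPKM in cKO cells. Grhl3 had 7.13 FPKM in iKO and 6.70 FPKM in cKO cells. Adjusted within this comparison alone, 11 members were called, without Lce1l and Sprr4. Suprabasal markers summed to 3846 FPKM in iKO and 4604 FPKM in cKO cells with 0 of 6 called by Cuffdiff (0 higher and 1 lower at an unadjusted p below 0.05). Immune markers summed to 98.3 FPKM in iKO and 79.4 FPKM in cKO cells with 4 of 5 higher, and sebaceous markers to 296 FPKM in iKO and 206 FPKM in cKO cells with 4 of 7 higher and 1 lower. Of the infundibulum markers 1 of 6 was higher, and 1 of 7 tested inner root sheath and 1 of 5 tested fibroblast markers were lower. The part of such cells in the lower Lce values was not tested. Driver, strain, age and sex differ here as well, and tamoxifen treatment may differ too.

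**Figure D3:**
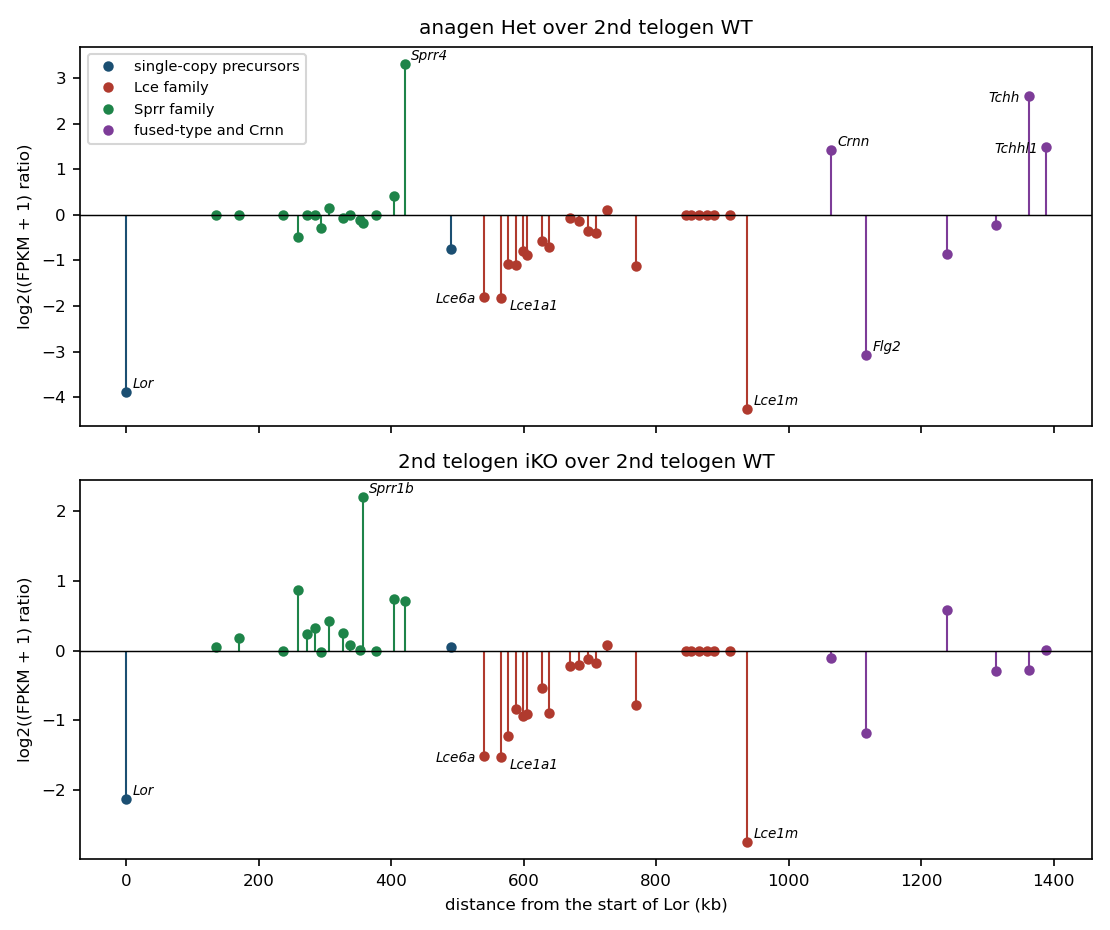
The 44 members on chromosome 3 by distance from the start of Lor (kb), with the log2((FPKM + 1) ratio) of anagen Het over telogen WT (top) and of telogen iKO over telogen WT (bottom), coloured by family. In both panels Lor and the Lce block point down with Lce1m longest, while Sprr4 (top) and Sprr1b (bottom) point up. Both panels share the WT libraries.

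Position along the cluster and direction in telogen iKO against WT cells can be read together. The Sprr block, on the Lor side of the cluster, pointed up in 12 of 15 rows (14 symbols), of which 4 had a test and the other 8 were at most 0.379 FPKM in iKO and 0.0816 FPKM in WT cells. The Lce block pointed down in 14 of 21 and up in 1 (Lce1k), the other 6 being listed at 0 in both groups. Genes between the members that the rule does not take had both patterns: Crct1 had 13.1 FPKM in iKO and 49.0 FPKM in WT cells, whereas 2310050C09Rik had 29.3 FPKM in iKO and 31.1 FPKM in WT cells and Kprp 5.95 FPKM in iKO and 7.19 FPKM in WT cells.

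The comparisons between hair cycle stages had the most called members, 16 within iKO cells and 20 between controls. Within iKO cells, which share driver, strain and sex, age differs with stage (day 30 in anagen and day 60 in telogen) and cannot be told apart from it. There 12 of 28 tested members were higher in telogen than in anagen and 4 were lower. Of all 13787 tested genes 33.2% were called, 17.6% as higher and 15.5% as lower. All 5 structural and secreted products were higher, with Cdsn 8.19-fold, Lor 3.66-fold, Krtdap 2.93-fold, Cnfn 1.96-fold and Ivl 1.67-fold higher. Cdsn had 24.1 FPKM in telogen iKO and 2.94 FPKM in anagen iKO cells (log2 fold 3.03, SE 0.31), and Lor had 28.9 FPKM in telogen iKO and 7.90 FPKM in anagen iKO cells (log2 fold 1.87, SE 0.25), both with q = 0.000444 in the authors' deposited table. Hrnr was 7.34-fold, Flg2 7.10-fold, Tgm1, the membrane-bound transglutaminase of the epidermis, 3.21-fold and Grhl3 2.48-fold higher in telogen iKO cells. Sprr1b had 6.28 FPKM in telogen iKO and 2.71 FPKM in anagen iKO cells (2.31-fold higher, q = 0.0221 in the authors' deposited table), and Tgm3 (1.84-fold) and Sprr1a (1.69-fold) were higher as well. Of the 9 tested Lce genes 0 were called by Cuffdiff and 1 had an unadjusted p below 0.05, namely Lce1m, which had 8.64 FPKM in telogen iKO and 4.95 FPKM in anagen iKO cells (log2 fold 0.80, SE 0.39, q = 0.104 in the authors' deposited table). Lower in telogen iKO cells were Tchh (7.48-fold), Sprr4 (3.36-fold), Casp14 (1.77-fold) and Crnn, which was listed at 0 in telogen iKO cells against 2.94 FPKM in anagen iKO cells.

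Among controls, anagen Het was set against telogen WT cells, which differ in driver, Foxc1 genotype, strain, age and sex as well as stage. Tamoxifen treatment may differ too. Of 29 tested members 6 were higher and 14 lower in anagen Het cells, where 25.4% of all 13932 tested genes were called, 11.9% as higher and 13.5% as lower. Lower were all 5 structural and secreted products, 5 of 11 tested Lce genes, Flg2, Hrnr, Tgm1 and Grhl3. Lce1m had 2.38 FPKM in anagen Het and 63.5 FPKM in telogen WT cells, 26.6-fold lower (log2 fold -4.74, SE 0.40). Lor had 7.86 FPKM in anagen Het and 130 FPKM in telogen WT cells, 16.5-fold lower (log2 fold -4.04, SE 0.26), and Krtdap had 181 FPKM in anagen Het and 1281 FPKM in telogen WT cells, 7.07-fold lower (log2 fold -2.82, SE 0.17). Each of these had q = 0.000444 in the authors' deposited table. Higher in anagen Het cells were Sprr4 at 70.9 FPKM against 6.27 FPKM in telogen WT cells (11.3-fold), trichohyalin (Tchh), the inner root sheath and medulla protein, at 21.8 FPKM against 2.74 FPKM in telogen WT cells (7.95-fold), Crnn (25.1-fold), Tgm3 (2.20-fold), Casp14 (1.97-fold) and Tchhl1, which had 1.81 FPKM in anagen Het cells and was listed at 0 in telogen WT cells. Sprr1a had 32.8 FPKM in anagen Het and 24.3 FPKM in telogen WT cells, without a call (q = 0.180 in the authors' deposited table).

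Markers of most other cell types differed between stages in the same comparisons. Suprabasal markers summed to 1257 FPKM in anagen Het and 4042 FPKM in telogen WT cells with 5 of 6 lower, and to 3846 FPKM in telogen iKO and 1272 FPKM in anagen iKO cells with 4 of 6 higher. Inner root sheath markers summed to 212 FPKM in anagen Het and 32.3 FPKM in telogen WT cells with 7 of 9 higher, and hair shaft markers to 80.7 FPKM in anagen Het and 0.450 FPKM in telogen WT cells with 4 of 8 tested higher. Between stages of iKO cells, sebaceous markers summed to 296 FPKM in telogen and 91.2 FPKM in anagen with 6 of 7 higher, and immune markers to 98.3 FPKM in telogen and 20.6 FPKM in anagen with 5 of 5 higher. There 3 of 6 infundibulum markers were higher and 1 lower, while 7 of 9 inner root sheath markers were lower and 1 higher, and 4 of 7 tested hair shaft and 3 of 6 fibroblast markers were lower. In anagen Het against telogen WT cells, 3 of 7 sebaceous and 2 of 5 immune markers were lower, 4 of 6 fibroblast markers were higher, and of the infundibulum markers 2 of 6 were higher and 1 lower. No suprabasal marker was at 0 in any group, and Krt10 ranged from 168 to 2049 FPKM. The part of such cells in the levels of the envelope genes was not tested.

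**Figure D4:**
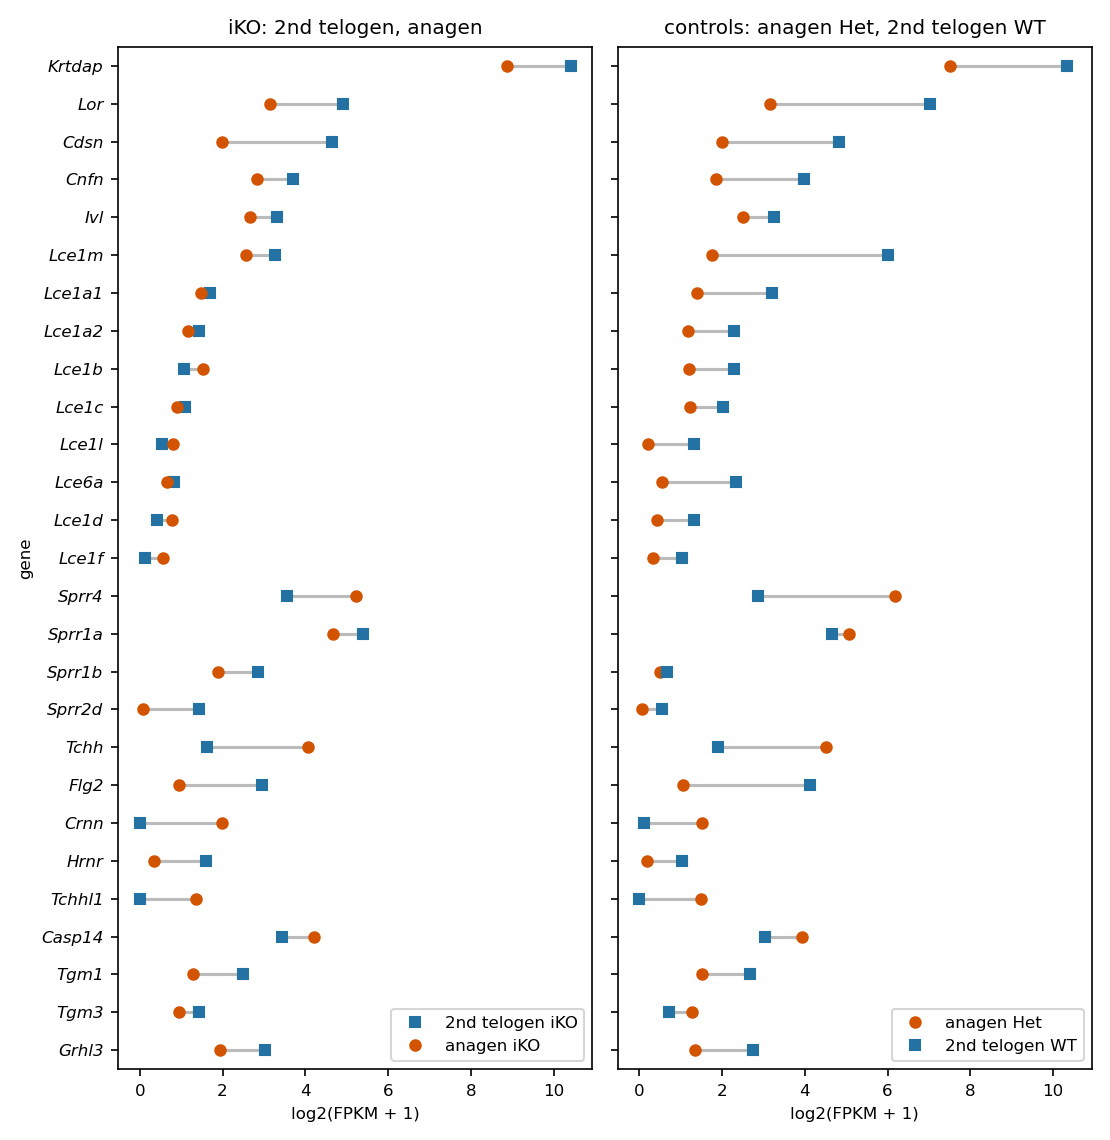
Log2(FPKM + 1) from the joint table for members at 1 FPKM or more in any of 4 groups, telogen and anagen iKO cells on the left and anagen Het and telogen WT cells on the right, joined by a line per gene. Krtdap, Lor, Cdsn and Flg2 lie further right in telogen (squares) in both panels, Tchh, Crnn, Tchhl1 and Sprr4 lie further right in anagen (circles), and the Lce1 lines are short on the left and long on the right.

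The Shh-Het pair gives a second stage contrast with 1 library per group, so no test was made and values are described at a minimum of 1 FPKM in either library and a 2-fold difference. Of 27 members that reached the minimum, 4 were larger and 16 smaller in anagen II than in first telogen, where 30.6% of all 13601 genes that reached it differed by as much, 10.4% larger and 20.1% smaller. Lor had 11.04 FPKM in anagen II and 65.6 FPKM in first telogen, Lce1m had 0.917 FPKM in anagen II and 25.3 FPKM in first telogen, and Cdsn had 3.33 FPKM in anagen II and 11.5 FPKM in first telogen. All 11 Lce genes that reached the minimum were smaller in anagen II. Larger in anagen II were Tchh at 18.8 FPKM against 1.68 FPKM in first telogen, Casp14 at 14.5 FPKM against 3.81 FPKM in first telogen, Sprr1a at 35.4 FPKM against 13.6 FPKM in first telogen, and Crnn at 1.57 FPKM against 0.418 FPKM in first telogen. Since the first telogen library lists few genes at 0, the count was repeated for members at 1 FPKM or more in a group of 2 libraries, and 18 members then differed by 2-fold, with first telogen still in every ratio.

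**Figure D5:**
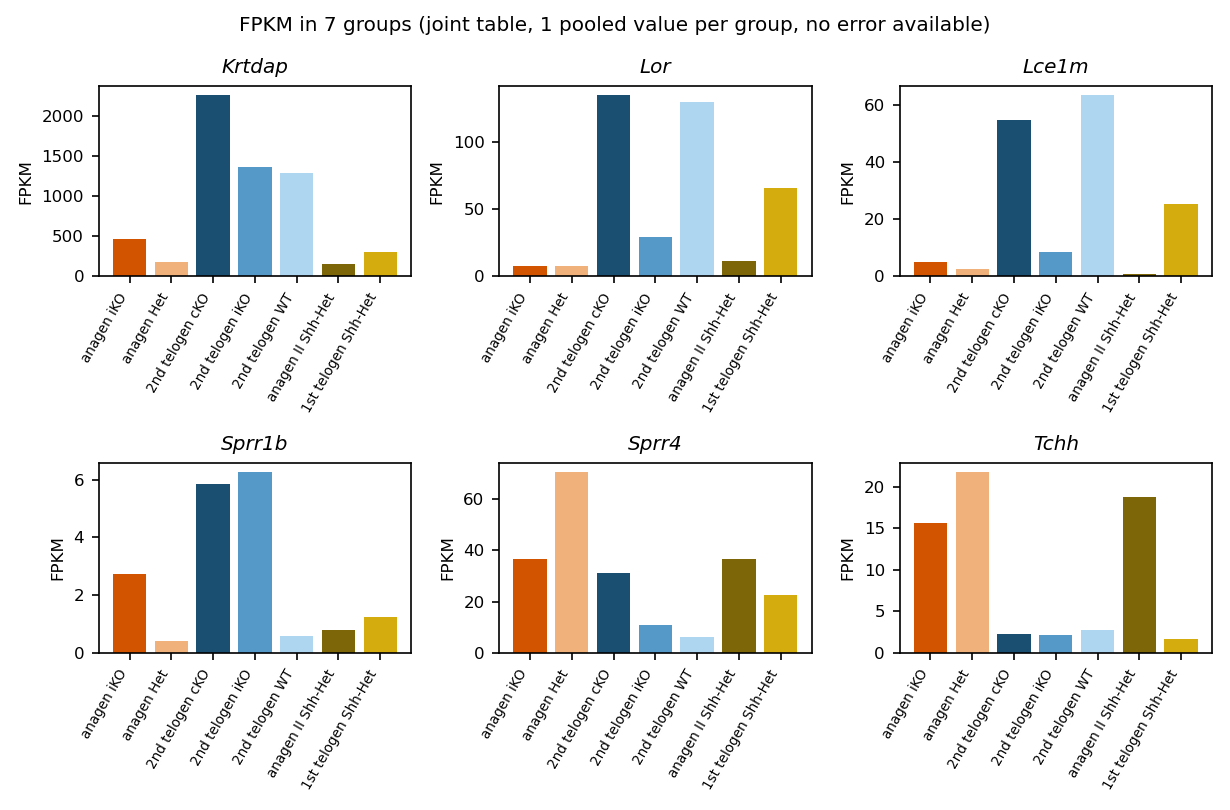
FPKM in the 7 groups for 6 members, 1 bar per group and no error bars since the tables pool the libraries, with anagen iKO and Het first, then telogen cKO, iKO and WT, then anagen II and first telogen Shh-Het. Sprr1b is tall in all 3 knockout groups, at 2.71, 5.86 and 6.28 FPKM, and at most 1.25 FPKM in the others, while Lor and Lce1m are tall in telogen cKO and WT but not in telogen iKO cells.

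The summed Lce level was 14.1 FPKM in anagen iKO and 9.75 FPKM in Het cells, 102 FPKM in telogen cKO, 17.3 FPKM in telogen iKO and 92.5 FPKM in telogen WT cells, and 3.16 FPKM in anagen II and 75.4 FPKM in first telogen.

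Other genes of keratinocyte differentiation were counted over the lists named in the methods. No list holds a member, but the lists and marker sets overlap: all 6 suprabasal markers are also among the 14 spinous genes, Cst6 is a spinous gene and an infundibulum marker, and Gata3 is a transcription factor on the list and an inner root sheath marker. In anagen iKO against Het cells 1 of 14 tested spinous genes was higher (Krt1, 122 FPKM in iKO and 77.7 FPKM in Het cells) and 1 lower (Calml3, 306 FPKM in iKO and 655 FPKM in Het cells), with a median log2((FPKM + 1) ratio) over the list of 0.18 against -0.02 over all tested genes. Of 25 other tested cornified layer and barrier genes 1 was higher (Spink5, an inhibitor of epidermal proteases) and 4 were lower, among them Tgm5, a transglutaminase, at 42.9 FPKM in iKO and 147 FPKM in Het cells. At an unadjusted p below 0.05, Cuffdiff had 5 barrier genes higher and 4 lower, and 5 spinous genes higher and 2 lower. Of 24 transcription factors 0 were higher by Cuffdiff (1 at an unadjusted p below 0.05) and 4 were lower (Fosl2, Klf4, Maf, Gata3), with Klf4, a barrier regulator, at 116 FPKM in iKO and 172 FPKM in Het cells. The medians of these lists were 0.02 and -0.06. Over all tested genes 5.18% were higher and 5.08% lower.

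In telogen cKO against WT cells 2 of 13 tested spinous genes were higher (Dsg1b and Cst6) and 0 lower by Cuffdiff (0 lower also at an unadjusted p below 0.05). Of 25 barrier genes 0 were higher (5 at an unadjusted p below 0.05) and 1 was lower (Scel, an envelope precursor, 54.2 FPKM in cKO and 115 FPKM in WT cells). Of 24 transcription factors 1 was higher (Ehf, 1.23 FPKM in cKO and 0.252 FPKM in WT cells) and 2 were lower (Fosl2 and Maf). Their medians were 0.30, 0.24 and -0.18, and over all tested genes 3.75% were higher and 2.87% lower. In telogen iKO against WT cells the counts were 2 higher and 2 lower of 14 spinous genes, 3 higher and 3 lower of 25 barrier genes, and 4 higher and 0 lower of 24 transcription factors (0 lower also at an unadjusted p below 0.05), with medians of 0.35, -0.01 and 0.31 against -0.02 over all tested genes, of which 7.01% were higher and 5.88% lower. Against cKO cells, telogen iKO cells had 7 of the 24 transcription factors higher and 0 lower (1 lower at an unadjusted p below 0.05), with Klf4 at 1463 FPKM in iKO and 397 FPKM in cKO cells, where 7.53% of all tested genes were higher and 7.35% lower.

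Between stages of iKO cells, 8 of 14 spinous, 14 of 25 barrier and 12 of 24 transcription factor genes were higher in telogen, and 0, 1 and 3 were lower (1, 1 and 3 at an unadjusted p below 0.05), with medians of 1.08, 0.54 and 0.53 against 0.01 over all tested genes. Of all tested genes 17.6% were higher and 15.5% lower. Klf4 had 1463 FPKM in telogen iKO and 109 FPKM in anagen iKO cells, and the AP-1 genes Junb and Jun were 6.45-fold and 5.70-fold higher in telogen iKO cells. In anagen Het against telogen WT cells, 0 of 14 spinous genes were higher (0 also at an unadjusted p below 0.05) and 8 lower, 0 of 25 barrier genes higher (2 at an unadjusted p below 0.05) and 14 lower, and 4 of 24 transcription factors higher and 5 lower, with Fos at 474 FPKM in anagen Het and 4023 FPKM in telogen WT cells. Of all tested genes 11.9% were higher and 13.5% lower.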

How the data were processed

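Cells were sorted by FACS and sequenced as TruSeq mRNA libraries, as the labels' protocols state. TopHat, Cufflinks, Cuffdiff and the build mm9 are named in the submitters' processing notes. Versions and settings are not given in the sources used here. Per the file headers, the 3 tables hold for each gene the authors' FPKM of 2 groups, their log2 fold, a test statistic (a score deposited by the authors), and the deposited p-value and q-value. The smallest deposited p-value is 5e-05, and the joint q-value is adjusted over all 21 comparisons. No table gives counts, so depth is unknown. Tables were scaled separately (joint over own table, median log2 -0.08 in anagen and 0.06 in telogen), so levels are compared only within a table.

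The members and the lists beside them were chosen with earlier results of these data known, so no test is made over a list. The lists are spinous genes, other cornified layer and barrier genes, transcription factors of keratinocyte differentiation, S100 genes and activated keratinocyte genes, with 9 sets of cell type markers. Named were members reaching 1 FPKM, members called, and up to 4 called genes per list and comparison by lowest p. A symbol on several rows was represented by the highest, except that every member row was counted. Folds put the group named first on top, turned from the deposited sign where needed. Ratios of lists use a pseudocount of 1, which understates changes of low genes. The SE is the log2 fold over the statistic. In 1140 anagen and 772 telogen genes the deposited p-value and the p-value of a normal distribution at the statistic lay on opposite sides of 0.05, and these were left out of the test of a difference between knockout effects, a two-sided z test with Benjamini-Hochberg adjustment at 0.05. That test was also run on simulated folds drawn with the SE from the statistic. Such a simulation cannot show whether that SE holds in these data. Each label names 1 mouse per library, and p-values rest on 2 libraries per group. Promoters are RefSeq's, build GRCm38.p6, and were not joined to mm9 coordinates. Python 3.11.15, pandas 2.3.3, numpy 2.4.6, scipy 1.17.1 and matplotlib 3.10.9 were used.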

Additional observations from a re-analysis of the deposited data

Results flagged for a closer look

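Sprr4 was called different between the knockout comparisons with the SE from the statistics alone, with a telogen minus anagen log2 difference of 3.27. It had 38.7 FPKM in anagen iKO and 75.1 FPKM in Het cells, and 29.8 FPKM in telogen cKO and 6.01 FPKM in WT cells, and neither comparison called it in its own table. The joint table called it in telogen cKO against WT cells (q = 0.0133 in the authors' deposited table). With the SE implied by the deposited p-values its adjusted p was 0.117, against 5.35e-43 from the statistics by the Benjamini-Hochberg adjusted z test. In the joint table the difference was 3.27 as well.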

How the results depend on the processing

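No paired analysis was possible because the tables hold 1 pooled value per group, and for the same reason no replicate could be left out. At a deposited q below 0.01, 2 members were called in anagen iKO against Het, 2 in telogen cKO against WT and 8 in telogen iKO against cKO cells, in place of 4, 4 and 13. For cKO against WT, 7 were called in the joint table and 2 with a 2-fold minimum added. The count of members 2-fold apart in the Shh-Het pair was 11 with a minimum of 5 FPKM and 41 with 0.1 FPKM, in place of 20. With the larger SE, 0 members differed between knockout effects, in place of 1. The median log2 ratio of the members was 0.01 (0.0055) in anagen for those at 1 FPKM or more, in place of 0, and in cKO against WT it was 0.39 with a pseudocount of 0.1, 0.076 with 5, 0.56 at 1 FPKM or more and 0.20 in the joint table, in place of 0.19. Members reaching a level numbered 42 at 0.5 FPKM and 26 at 2 FPKM, in place of 32 at 1 FPKM, each with the first telogen library included. For single members, 633 values kept their status under the settings tried, whether called or not called. A call was lost in 34 and gained in 3, and 0 changed direction. Apart from the joint table, the settings reuse the same fold, so a direction could not change in them, and a stricter threshold can only remove calls. Crnn between stages of iKO cells and Tchhl1 between controls have no fold, being listed at 0 in 1 group, and are not among them. The causes were not tested. Depth is unknown, so members near 0 FPKM cannot be given a detection limit.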

Other observations

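Genes of activated keratinocytes, which are induced in wounded or inflamed epidermis, were counted in each knockout comparison. In anagen iKO against Het cells 6 of 10 tested were higher and 0 lower by Cuffdiff (7 higher and 0 lower at an unadjusted p below 0.05), among them Lcn2, an iron-binding antimicrobial protein (4.35 FPKM in iKO and 0.865 FPKM in Het cells), Krt16 (17.8 FPKM in iKO and 4.74 FPKM in Het cells) and the gap junction gene Gjb2 (202 FPKM in iKO and 59.3 FPKM in Het cells). In telogen cKO against WT cells 3 of 12 were higher and 1 lower, with Krt16 at 23.9 FPKM in cKO and 8.25 FPKM in WT cells and the defensin Defb6 at 473 FPKM in cKO and 151 FPKM in WT cells. In telogen iKO against WT cells 7 of 11 were higher and 0 lower, as also at an unadjusted p below 0.05 by Cuffdiff. The medians of the list on the log2((FPKM + 1) ratio) scale were 0.38, 0.51 and 0.46, against -0.02, 0.00 and -0.02 over all tested genes. Of all tested genes 5.18%, 3.75% and 7.01% were higher in these comparisons, and 5.08%, 2.87% and 5.88% were lower. Genes of this list also differed between stages. In anagen Het against telogen WT cells 4 of 9 tested were higher and 2 lower (11.9% and 13.5% of all tested genes). In telogen against anagen iKO cells 3 of 12 were higher and 5 lower (17.6% and 15.5% of all tested genes). Gjb2 had its highest level in anagen II, at 657 FPKM. Defb6 is also among the infundibulum markers and Krt6a, on the same list, among those of the companion layer.

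The S100 genes lie near the envelope cluster. Of 13 tested, 0 were higher (0 also at an unadjusted p below 0.05) and 2 lower in anagen iKO against Het cells, 0 were called in telogen cKO against WT cells by Cuffdiff (2 higher and 0 lower at an unadjusted p below 0.05), and 0 were higher (0 also at an unadjusted p below 0.05) and 4 lower in telogen iKO against WT cells, with S100a4 at 1277 FPKM in iKO and 4095 FPKM in WT cells. Of all tested genes 5.08%, 2.87% and 5.88% were lower in these 3 comparisons. Prr9, a gene between the members that the rule does not take, had 24.5 FPKM in anagen iKO and 26.3 FPKM in Het cells, at most 0.743 FPKM in the telogen groups, 14.8 FPKM in anagen II and 0.685 FPKM in first telogen.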
